A study of Mus musculus with 12 samples.

Results

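The mouse genes described here are 10 genes of glucose use and the response to low oxygen: Slc2a1, Slc2a3, Hk2, Pgk1, Ldha, Pdk1, Vegfa, Egln3, Bnip3 and Ankrd37. They were taken by symbol from a raw count table of 24421 gene rows, and all 10 were found in it and passed the filter on low counts. The table covers 12 libraries from mouse embryos of the C57Bl/6 strain in 4 groups of 3, labelled Eftud2+/- (heterozygous, the control) or Eftud2-/- (homozygous) at embryonic day 9.0 (E9.0) or 9.5 (E9.5). Eftud2 codes for a spliceosomal GTPase that belongs to the U5 particle. The deletion is described as specific to the neural crest, the migratory cells that build much of the face, so all 4 groups carry an altered Eftud2 allele and the controls are not wild type. The driver of the deletion, the somite counts and whether a library pools embryos are not stated. The material is described in differing ways in the labels, as cells of the neural crest, ganglia of the cranial nerves and whole heads, and the labels do not say whether the 3 libraries of a group came from separate embryos or litters, so the p-values measure only the spread between these libraries.

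Cells in low oxygen stabilise the transcription factor HIF-1, which otherwise is hydroxylated by the prolyl hydroxylases of the Egln family, bound by the Vhl ubiquitin ligase and degraded. HIF-1 raises the glucose carriers and glycolytic enzymes, turns pyruvate towards lactate, holds back the entry of pyruvate into mitochondria through Pdk1, and raises the vessel growth factor Vegfa. Early mouse embryos develop in low oxygen and rely heavily on glycolysis before the heart and circulation take over oxygen supply. The comparisons below ask how these genes differed between E9.0 and E9.5 in the heterozygous controls, whether the homozygous libraries showed the same change, and whether the genotypes differed at either stage.

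HIF-1 binds short sites whose core letters are ACGTG or GCGTG, so the promoters of the members are shown first. RefSeq windows of 300 bases (250 before to 50 after an annotated start, build GRCm38.p6) were found for 9 of the 10 genes, all but Slc2a3, in 12 windows. Of the genes printed here, Ldha, Pgk1 and Slc2a1 were called lower at E9.5 in the count data below and Bnip3 and Ankrd37 were not, so that both kinds can be compared. Capitals mark ACGTG or GCGTG on either strand (CACGT and CACGC are their reverse complements, and CACGTG holds an ACGTG on each strand). The windows are chr7:46845554-46845853 (+) for Ldha, chrX:106186850-106187149 (+) for Pgk1, chr4:119108495-119108794 (+) for Slc2a1, chr7:138909457-138909756 (-) for Bnip3 and chr8:45999801-46000100 (-) for Ankrd37, each written 5′ to 3′ along the gene.
Ldha: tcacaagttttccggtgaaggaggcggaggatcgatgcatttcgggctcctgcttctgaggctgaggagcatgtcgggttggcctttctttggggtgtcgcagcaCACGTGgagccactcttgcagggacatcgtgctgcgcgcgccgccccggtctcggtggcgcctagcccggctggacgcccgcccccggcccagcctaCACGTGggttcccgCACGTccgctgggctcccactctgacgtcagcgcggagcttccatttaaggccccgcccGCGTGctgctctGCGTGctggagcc
Pgk1: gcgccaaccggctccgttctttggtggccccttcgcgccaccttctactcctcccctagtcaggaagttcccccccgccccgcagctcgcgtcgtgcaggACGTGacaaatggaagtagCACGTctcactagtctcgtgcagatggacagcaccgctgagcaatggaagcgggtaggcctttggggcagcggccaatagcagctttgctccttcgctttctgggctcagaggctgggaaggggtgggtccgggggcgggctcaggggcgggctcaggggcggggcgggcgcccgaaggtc
Slc2a1: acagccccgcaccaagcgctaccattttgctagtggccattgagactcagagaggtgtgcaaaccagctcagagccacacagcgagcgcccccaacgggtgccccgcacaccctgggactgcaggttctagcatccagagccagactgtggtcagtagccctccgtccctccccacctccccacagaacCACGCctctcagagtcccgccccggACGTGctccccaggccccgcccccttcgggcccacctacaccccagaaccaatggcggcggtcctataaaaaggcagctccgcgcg
Bnip3: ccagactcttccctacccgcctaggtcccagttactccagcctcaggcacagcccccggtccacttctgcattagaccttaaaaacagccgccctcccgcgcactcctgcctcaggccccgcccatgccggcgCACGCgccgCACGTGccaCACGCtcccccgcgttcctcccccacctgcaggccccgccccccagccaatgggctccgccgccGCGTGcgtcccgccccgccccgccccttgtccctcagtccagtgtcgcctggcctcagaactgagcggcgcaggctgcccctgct
Ankrd37: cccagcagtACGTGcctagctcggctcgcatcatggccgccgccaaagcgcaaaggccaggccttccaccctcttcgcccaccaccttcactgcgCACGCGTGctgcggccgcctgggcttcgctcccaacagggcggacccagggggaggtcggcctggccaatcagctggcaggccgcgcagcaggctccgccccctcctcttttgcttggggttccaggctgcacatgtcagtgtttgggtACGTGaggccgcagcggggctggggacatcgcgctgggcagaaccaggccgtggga

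Ldha held 5 matches of ACGTG and 2 of GCGTG, the most ACGTG matches of any member window. Pgk1 held 2 and 0, Slc2a1 held 1 and 1, Bnip3 held 2 and 3, and Ankrd37 held 2 and 2. Over the members, 8 of 9 genes had ACGTG in at least 1 window and 9 of 9 had either motif, beside 21.8% and 46.7% of the 27025 genes in the table. Pdk1 was the gene with GCGTG only. The shares depend on the genes compared with: counted by window, either motif was in 10 of the 12 member windows (83.3%), in 63.0% of 11755 windows of genes with a mean of at least 50 counts and in 43.8% of all 32851 windows. In 17 other HIF target genes with a window, 12 held ACGTG. Genes that were called lower at E9.5 and genes that were not both carried the letters. A match is only a run of letters and is not evidence that a factor binds there.

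Totals ranged from 13914543 to 24302660 counts at E9.0 and from 24165537 to 31172708 at E9.5. Levels are given in CPM, a gene's count as parts of its library's total on a common linear scale, with library totals adjusted by the TMM method, which sets the bulk of genes level between libraries. The ribosomal RNA precursor Rn45s made up 37.4% of all reads counted in replicate 1 of the heterozygous E9.0 group, at most 16.2% in the other E9.0 libraries and at most 5.90% at E9.5. At E9.0, Eftud2 itself was at 302, 275 and 279 CPM in heterozygous against 236, 235 and 232 in homozygous libraries, then at 248, 255 and 264 against 226, 221 and 226 at E9.5, so the genotypes did not overlap at either stage. Xist (174 to 382 CPM) and Y-linked genes (54.5 to 110 CPM) were present together in 6 of the 12 libraries, in 4 Xist was at most 0.22 CPM and in 2 the Y-linked genes were at most 0.068 CPM. Neural crest, cranial ganglion and neural progenitor markers were all present: 9 or 10 of 10 crest markers, 9 to 11 of 13 ganglion markers and 10 of 10 neural progenitor markers reached 1 CPM in every library. Erythroid, endothelial and heart muscle markers were present beside them, with values given further on. In bulk RNA of this kind, fewer cells of a type and less RNA per cell cannot be told apart.

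Between E9.0 and E9.5 the glucose carriers and the glycolytic enzymes fell in both genotypes, while most of the other members did not pass the test. The Rn45s share also separated the stages, at 6.05% or more in every E9.0 library and at most 5.90% at E9.5. No batch is given in the labels, so stage cannot be told apart from any difference in handling that went with it. Both genotypes share that limit. In the heterozygous libraries 6 of 10 members were called lower and 0 higher at an adjusted p under 0.05 (edgeR quasi-likelihood test, Benjamini-Hochberg over 14810 genes), beside 16.0% of all genes lower and 19.2% higher. They were Slc2a1, Slc2a3, Hk2, Pgk1, Ldha and Egln3. In the homozygous libraries 5 of 10 were called lower and 0 higher, beside 15.8% and 19.6% of all genes, and these were the first 5 of the 6. The median log2 fold change over the 10 members was -0.53 in heterozygous and -0.37 in homozygous libraries, against 0.01 over all genes in each. In heterozygous libraries 9 of 10 members had every E9.5 library below every E9.0 library (22.5% of all genes did), the exception being Bnip3. In homozygous libraries 5 of 10 did (22.1%). The members were chosen with earlier results of these data known, so these shares are a description and no test. The count in heterozygous libraries depends on the scaling: with total counts alone 1 of 10 was called, Slc2a3, while the median log2 change of all genes moved to 0.38 and the share of calls that were higher went from 54.4% to 96.3%. The log2 changes of Slc2a1, Slc2a3, Hk2, Pgk1 and Ldha were then -0.26, -0.56, -0.31, -0.30 and -0.20 in heterozygous libraries. Measured against the moved median of all genes, they stood at -0.64, -0.94, -0.69, -0.67 and -0.58. That subtraction takes out a shift common to all genes, so it returns values near those of the main fit and is no separate test. With Rn45s left out of the totals all 5 were called in both genotypes.

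**Figure D1:**
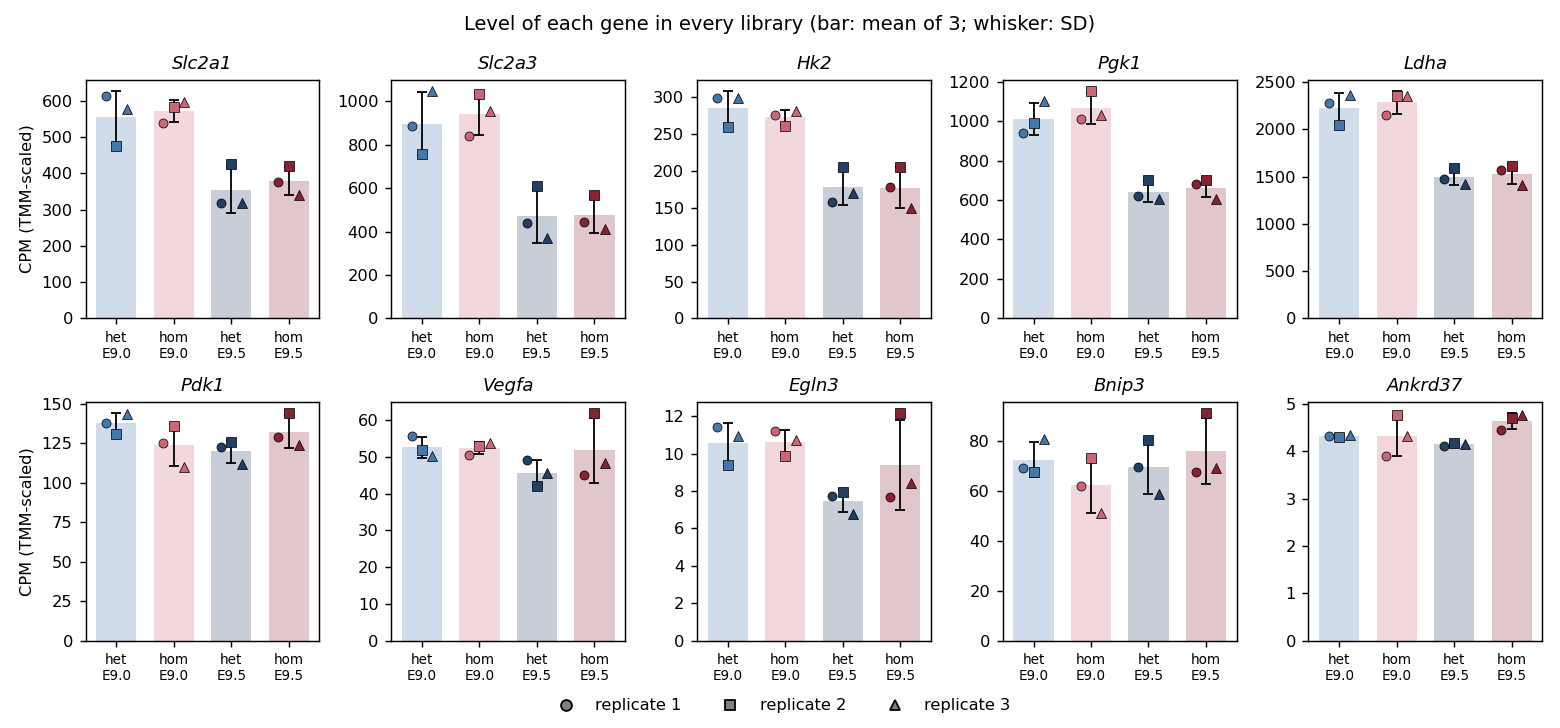
Level of each of the 10 genes in CPM (vertical axis, TMM-scaled, from 0) in the heterozygous (het) and homozygous (hom) libraries at E9.0 and E9.5. Bars are means of 3 libraries, whiskers are SDs and the circle, square and triangle are replicates 1, 2 and 3; in the upper row every E9.5 library lies below every E9.0 library in both genotypes.

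Slc2a1 (GLUT1) is the widely expressed facilitative glucose carrier, and Slc2a3 (GLUT3) is a high-affinity carrier typical of neurons and early embryos. In heterozygous libraries Slc2a1 stood at 613, 476 and 578 CPM at E9.0 and at 318, 427 and 319 at E9.5. The homozygous libraries gave 538, 582 and 598 at E9.0 and 377, 419 and 341 at E9.5. The stages did not overlap in either genotype, the closest pair being replicate 2 of the heterozygous groups. The log2 fold change was -0.65 ± 0.12 (SE, n = 3 per group; 1.57-fold lower; edgeR adjusted p = 0.00106) in heterozygous and -0.59 ± 0.12 (adjusted p = 0.00189) in homozygous libraries.

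Slc2a3 showed the largest fall of the 10 members in both genotypes. Its heterozygous levels were 887, 759 and 1047 CPM at E9.0 and 439, 611 and 369 at E9.5. Its homozygous levels were 839, 1034 and 954 at E9.0 and 447, 567 and 413 at E9.5. All E9.5 libraries were below all E9.0 libraries, and replicate 2 was the highest of the 3 at E9.5 in each genotype. The fall was 1.90-fold in heterozygous (log2 -0.92 ± 0.20, edgeR adjusted p = 0.00573) and 1.98-fold in homozygous libraries (-0.99 ± 0.20, adjusted p = 0.00403). Its spread between replicates was also the widest among the carriers and enzymes, as the SE shows.

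Hk2, the inducible hexokinase that traps glucose as glucose-6-phosphate and can sit on mitochondria, was at 299, 260 and 299 CPM in heterozygous libraries at E9.0 and at 159, 205 and 170 at E9.5. In homozygous libraries it was at 276, 262 and 281, then 178, 205 and 150. The gap between the stages was wider than the range within any group. Its log2 fold change was -0.69 ± 0.11 in heterozygous (edgeR adjusted p = 2.6e-04) and -0.62 ± 0.11 in homozygous libraries (adjusted p = 5.4e-04).

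Pgk1, the X-linked phosphoglycerate kinase of the first ATP-making step of glycolysis, stood at 939, 990 and 1102 CPM at E9.0 and 620, 701 and 604 at E9.5 in heterozygous libraries. Homozygous libraries had 1009, 1152 and 1031, then 683, 699 and 607. Ldha, the lactate dehydrogenase subunit that favours making lactate from pyruvate, stood at 2274, 2043 and 2357 CPM and then at 1472, 1586 and 1423 in heterozygous libraries, and at 2147, 2349 and 2357 and then 1571, 1607 and 1412 in homozygous ones. For both enzymes the lowest E9.0 library was far above the highest E9.5 library. Pgk1 fell with a log2 fold change of -0.65 ± 0.08 in heterozygous (edgeR adjusted p = 1.2e-05) and -0.68 ± 0.08 in homozygous libraries (adjusted p = 7.5e-06). Ldha fell by 0.57 ± 0.07 (adjusted p = 1.3e-05) and by 0.58 ± 0.07 on the log2 scale (adjusted p = 1.1e-05), the tightest estimates of the 10. Pseudogene copies of Ldha and Pgk1 in the annotation had no row of their own in the table, so how their reads were counted is uncertain.

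The remaining members act around pyruvate, oxygen sensing, vessels and mitochondria. Egln3 (PHD3), the oxygen-sensing prolyl hydroxylase that is itself a HIF target, was low, at 11.5, 9.39 and 10.9 CPM in heterozygous E9.0 libraries and 7.74, 7.92 and 6.78 at E9.5. Its fall in heterozygous libraries passed the test (log2 -0.49 ± 0.15, edgeR adjusted p = 0.0182), but not without E9.0 replicate 1 (adjusted p = 0.0604), E9.0 replicate 3 (0.0588) or E9.5 replicate 3 (0.0701). In homozygous libraries it was at 11.2, 9.85 and 10.7 CPM at E9.0 and 7.66, 12.2 and 8.44 at E9.5. Replicate 2 at E9.5 was above every E9.0 library while the other E9.5 libraries were below. The log2 fold change there was -0.16 ± 0.15 (edgeR adjusted p = 0.435), and without that library it was -0.39 (adjusted p = 0.0331).

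Pdk1, the kinase that switches off pyruvate dehydrogenase, had 138, 131 and 143 CPM at E9.0 and 122, 126 and 112 at E9.5 in heterozygous libraries. The groups did not overlap, but the difference was small and missed the threshold (log2 -0.20 ± 0.08, edgeR adjusted p = 0.0603). It did pass with RLE scaling factors (adjusted p = 0.0423), in a fit of the 2 groups alone (0.0359) and with DESeq2 (0.0382). In homozygous libraries Pdk1 was at 125, 136 and 110 CPM at E9.0 and at 129, 144 and 124 at E9.5, which overlap (0.10 ± 0.08, edgeR adjusted p = 0.359).

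Vegfa, the main growth factor for blood vessels, was at 55.7, 51.8 and 50.3 CPM at E9.0 and 49.2, 42.2 and 45.5 at E9.5 in heterozygous libraries. It was at 50.5, 53.1 and 53.8, then 45.1, 61.9 and 48.5, in homozygous ones. The heterozygous stages did not overlap but the change missed the threshold (-0.20 ± 0.10, edgeR adjusted p = 0.122), and the homozygous stages overlapped (-0.02 ± 0.10, adjusted p = 0.913).

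Bnip3, a mitochondrial receptor for mitophagy, ranged from 51.2 to 91.0 CPM over the 12 libraries with overlapping groups. Its log2 fold change was -0.06 ± 0.16 in heterozygous and 0.29 ± 0.16 in homozygous libraries (edgeR adjusted p = 0.793 and 0.192). Ankrd37, a small ankyrin-repeat protein gene, had the lowest CPM of the members, from 3.91 to 4.76 over all libraries, with log2 changes of -0.06 ± 0.13 and 0.09 ± 0.13 (edgeR adjusted p = 0.755 and 0.615). Exons of Ankrd37 share 349 bases with Lrp2bp and 57 with Ufsp2 on the opposite strand. Those of Bnip3 share 504 with an antisense gene, and those of Slc2a1 share 105 with another. The strand setting of the counting is not given in the sources used here, so reads of these overlaps cannot be told apart.

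**Figure D2:**
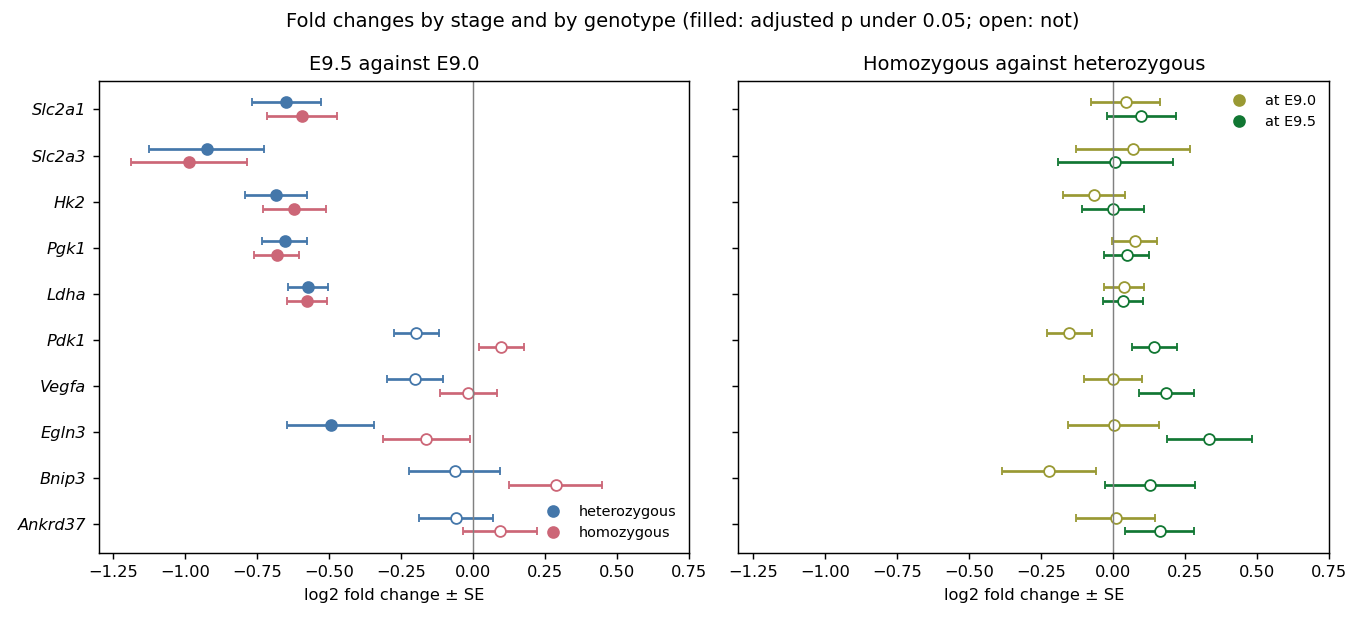
Log2 fold change with its SE (horizontal axis) for each gene, with the change from E9.0 to E9.5 in either genotype on the left and homozygous against heterozygous at each stage on the right. Filled points passed an adjusted p of 0.05; they are the 6 heterozygous and 5 homozygous stage changes, and no genotype point is filled.

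The stage change was tested for a difference between genotypes by the interaction term, and 0 of 10 members passed (0.0675% of all genes did). The 5 genes called in both genotypes had interaction terms of -0.06 to 0.06 on the log2 scale. The widest of their intervals was that of Slc2a3, from -0.66 to 0.53, and the narrowest that of Ldha, from -0.21 to 0.20. The Slc2a3 interval is too narrow, for the reason given with the genotype intervals below. The member with an unadjusted p under 0.05 for this term was Pdk1 (0.29 ± 0.11, edgeR adjusted p = 0.484). Bnip3 (0.35 ± 0.22) and Egln3 (0.33 ± 0.21) had larger terms with wider intervals that include 0.

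Homozygous and heterozygous libraries did not differ in any member past the threshold. At E9.0, 0 of 10 were called (0.587% of all genes) and 0 had an unadjusted p under 0.05 in edgeR. Their log2 differences ran from -0.22 (Bnip3) to 0.07 (Pgk1). At E9.5, 0 of 10 were called (1.89% of all genes in either direction, 1.19% higher), 1 had an unadjusted p under 0.05, and 9 of 10 log2 differences were above 0, the exception being Hk2 at 0.00. Averaged over the stages, 0 of 10 were called (2.96%), with 0 at an unadjusted p under 0.05. In DESeq2 and limma-voom each of these genotype counts was 0 as well. For Ldha the 95% interval of the E9.5 difference ran from -0.11 to 0.18 and for Pgk1 from -0.12 to 0.21. The Slc2a3 interval was from -0.41 to 0.43, so a change of that size was not excluded. All intervals were built with the median degrees of freedom over genes. Genes whose tests had fewer, Slc2a3 among them, have printed intervals that are too narrow.

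The member with the unadjusted p was Egln3 at E9.5, at 0.33 ± 0.15 (edgeR adjusted p = 0.330), and it rests on homozygous replicate 2: without that library the difference was 0.10. Ankrd37 was the member whose groups did not overlap at E9.5, at 4.12, 4.17 and 4.16 CPM in heterozygous and 4.45, 4.70 and 4.76 in homozygous libraries. That kind of separation upward was seen in 11.4% of all genes, and its test missed the threshold (0.16 ± 0.12, edgeR adjusted p = 0.646; exact permutation p = 0.1, the smallest that 3 against 3 allows, two-sided).

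Many of the members moved together between libraries of one group, though not every pair did. Homozygous E9.5 replicate 2 had all 10 members above its group mean, with a median deviation of 0.18 on the log2 scale, while 47.3% of all genes were above. Heterozygous E9.5 replicate 2 had 9 above, heterozygous E9.0 replicate 3 had 9, and heterozygous E9.0 replicate 2 had 0. The library with all 10 above had the lowest summed erythroid markers of the E9.5 libraries (2862 CPM) and the highest summed heart muscle markers of all (3711 CPM); their part in the shift was not tested. Within groups, the deviations of member pairs correlated with a median r of 0.50 over 45 pairs, 42 of them positive, against -0.01 for members paired with other genes. The 10 pairs among Slc2a1, Slc2a3, Hk2, Pgk1 and Ldha had a median r of 0.79 (0.57 to 0.88), Pdk1 and Bnip3 had 0.95 and Vegfa and Egln3 had 0.74. These describe 12 libraries whose deviations come from only 4 groups of 3.

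**Figure D3:**
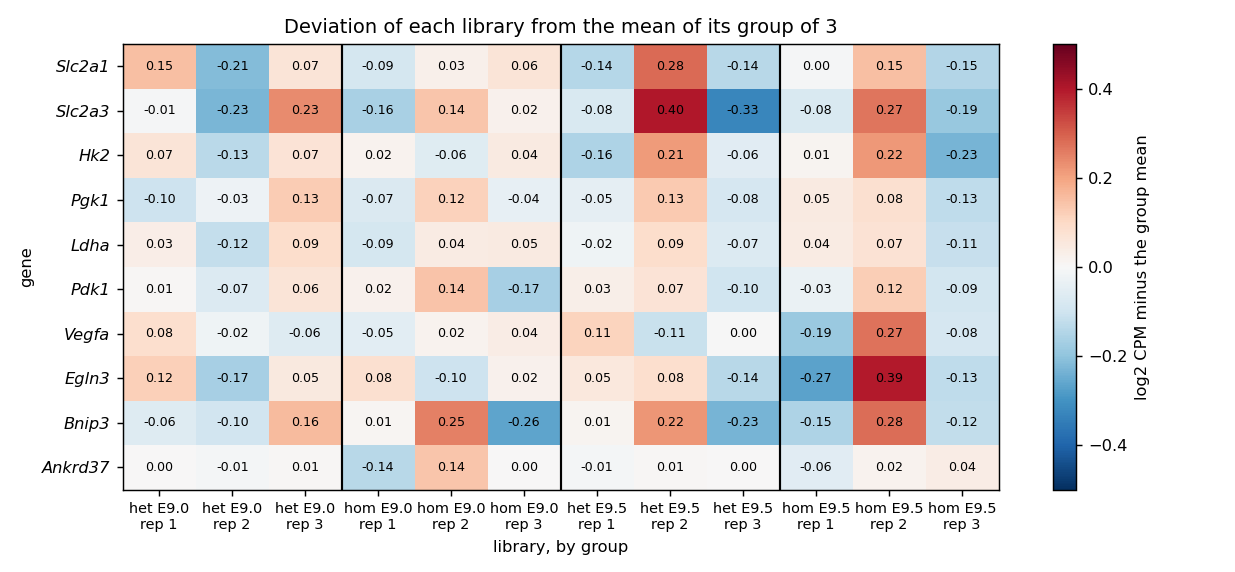
Each library's log2 CPM minus the mean of its group of 3 (colour and number in each cell), with genes in rows and libraries in columns, lines separating the groups. Homozygous E9.5 replicate 2 is above its group mean in all 10 genes and heterozygous E9.0 replicate 2 is above in 0.

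Over all 12 libraries, the gene most like each member was found among 12024 genes of at least 50 counts on average. Ldha was closest to Pfkl, the liver-type phosphofructokinase (Pearson r = 0.996 on log2 CPM), Slc2a1 to Podxl (0.987), Pgk1 to Ddx10 (0.987), Hk2 to Greb1l (0.981) and Slc2a3 to Arsi (0.980). The nearest gene of Egln3 was Stc1 (0.924). For the members that missed the stage test these were Stt3b for Pdk1 (0.887), Napg for Bnip3 (0.881), Lman1 for Ankrd37 (0.832) and Maff for Vegfa (0.829). All 12 libraries carry the stage difference, which any gene that changes with stage shares.

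Per kilobase of exon (union of GENCODE M21 exons), the order of levels in heterozygous E9.0 libraries was Ldha at 672 CPM per kb, Pgk1 at 450, Slc2a1 at 159, Slc2a3 at 124, Hk2 at 47.9, Bnip3 at 32.0, Pdk1 at 17.7, Vegfa at 12.3, Egln3 at 3.98 and Ankrd37 at 2.81. The ranges over the 3 libraries of neighbours in this order did not overlap except those of Slc2a1 and Slc2a3, where Slc2a1 was still the higher within each library. At E9.5 Bnip3 and Hk2 changed places, with overlapping ranges, in both genotypes. Egln3 and Ankrd37 kept their order at E9.5 but their ranges overlapped.

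Ratios of a member to a close relative do not depend on how the libraries are scaled. Ldha to Ldhb, the subunit that favours turning lactate back into pyruvate, was 37.9, 37.0 and 38.5 per kb in heterozygous E9.0 libraries and 10.4, 12.1 and 9.66 at E9.5. In homozygous libraries it was 54.4, 45.8 and 48.0, then 12.8, 13.5 and 11.0. The stages stood far apart, and at E9.0 every homozygous library was above every heterozygous one (exact permutation p = 0.1, the smallest possible for 3 against 3). The genotypes also did not overlap at E9.0 in Pdk1 to Pdk3 and in Bnip3 to Bnip3l, both lower in homozygous libraries (exact permutation p = 0.1 for each). Pdk1 to Pdk3 was at 0.80 ± 0.055 in heterozygous and 0.72 ± 0.025 in homozygous libraries. Its closest libraries were almost level, at 0.7407 (heterozygous replicate 2) and 0.7399 (homozygous replicate 1). Hk2 to Hk1, the housekeeping hexokinase, had a ratio of 14.2 ± 0.70 (SD, n = 3), then of 3.59 ± 0.16 in E9.5 libraries, in heterozygous and 13.2 ± 0.96 and 2.97 ± 0.68 in homozygous libraries, where E9.5 replicate 3 was at 2.18 and the other 2 at 3.42 and 3.31.

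Slc2a3 to Slc2a1 was lower at E9.5, at 0.78 ± 0.089 and then 0.64 ± 0.071 in heterozygous libraries and at 0.80 ± 0.056 and then 0.60 ± 0.043 in homozygous ones. Bnip3 to Bnip3l, its mitophagy relative, was higher at E9.5, at 0.60 ± 0.012 and then 0.76 ± 0.070 in heterozygous and at 0.50 ± 0.047 and then 0.83 ± 0.13 in homozygous libraries. Bnip3l itself was called lower at E9.5 in heterozygous and homozygous libraries (log2 -0.42 ± 0.07 and -0.44 ± 0.07), while Bnip3 was not called. Egln3 to Egln1, the main oxygen sensor of the family, had 0.18 ± 0.017 and then 0.13 ± 0.0098 in heterozygous and 0.18 ± 0.0099 and then 0.15 ± 0.022 in homozygous libraries. With 3 against 3, no exact test of such a ratio can go below 0.1. Pdk1 to Pdk3 was the ratio whose homozygous stages overlapped, and Hk2 to Hk1 the one whose genotypes did not overlap at E9.5. The share of other gene ratios that separate in this way was not computed.

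**Figure D4:**
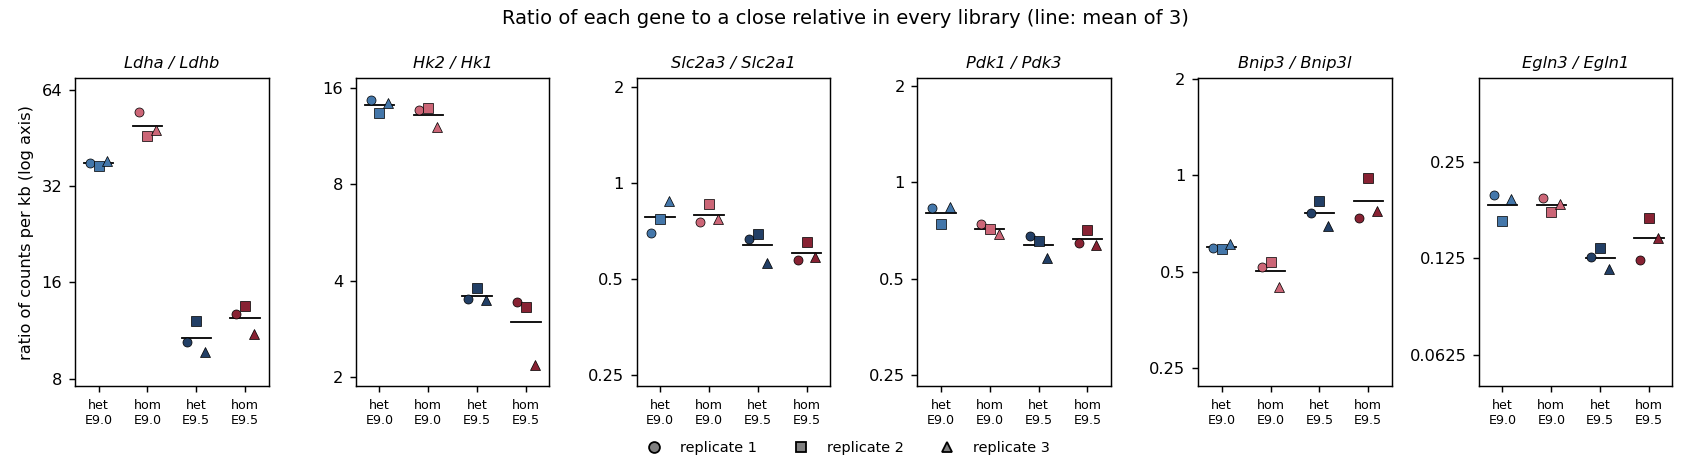
Ratio of counts per kilobase of each member to a close relative in every library, on log axes of equal span, with circle, square and triangle for replicates 1, 2 and 3 and a line at the mean of 3. Ldha to Ldhb and Hk2 to Hk1 drop to lower values at E9.5 in both genotypes; for Pdk1 to Pdk3 the homozygous stages overlap.

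Of 18 other glycolytic enzymes tested, 7 were called lower and 5 higher at E9.5 in heterozygous libraries, beside 16.0% and 19.2% of all genes. In homozygous libraries 8 were called lower and 4 higher, beside 15.8% and 19.6%. With total counts alone these counts were 1 lower and 6 higher, and 3 lower and 4 higher. The lower genes included Pfkl (log2 -0.68 ± 0.08), Pgam1 (-0.54 ± 0.07), Aldoa (-0.47 ± 0.08), Pkm (-0.46 ± 0.07), the last kinase of the pathway, and Pfkfb3 (-0.76 ± 0.12), which drives phosphofructokinase, in heterozygous libraries (edgeR adjusted p of 2.8e-04 or less for each). Aldoc, another aldolase, was lower as well (-0.54 ± 0.15 in heterozygous and -0.71 ± 0.15 in homozygous libraries). The higher genes were Hk1 (1.29 ± 0.10), Ldhb (1.25 ± 0.08), the phosphofructokinase Pfkp (0.94 ± 0.11), Pfkm (0.19 ± 0.06) and Pfkfb4 (0.38 ± 0.13). In homozygous libraries the log2 changes were Pfkl -0.73, Pgam1 -0.58, Pkm -0.62, Aldoa -0.38, Pfkfb3 -0.39, Hk1 1.55, Ldhb 1.40, Pfkp 1.02 and Pfkm 0.24, all called, while Pfkfb4 was at 0.09 ± 0.13 (not called). Gapdh missed the threshold (-0.24 ± 0.11 and -0.29 ± 0.11). Eno1 had only 0.70 to 1.95 CPM, while its near-identical copy Eno1b had 5.44 to 186, so enolase is uncertain here, including the lower call of Eno1 in homozygous libraries (-0.76 ± 0.27). Between genotypes, 0 of 18 were called at either stage, beside 0.587% of all genes at E9.0 and 1.89% at E9.5. Averaged over the stages 1 of 18 was called, beside 2.96% of all genes: Ldhb was lower in homozygous libraries (-0.25 ± 0.06, edgeR adjusted p = 0.0301).

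Of 16 genes of pyruvate and lactate handling, 8 were called higher and 3 lower in heterozygous libraries (19.2% and 16.0% of all genes were), and 9 and 4 in homozygous libraries (19.6% and 15.8%). With total counts alone 11 were higher in heterozygous and 7 in homozygous libraries, and 0 were called lower in either. Higher were both subunits of the mitochondrial pyruvate carrier, Mpc1 (1.31 ± 0.18 and 1.38 ± 0.19 in heterozygous and homozygous libraries) and Mpc2 (1.09 ± 0.10 and 0.81 ± 0.10). Also higher were Slc16a7, a high-affinity monocarboxylate carrier (1.97 ± 0.27 and 1.47 ± 0.29), and Pdk4, which like Pdk1 switches off pyruvate dehydrogenase (1.73 ± 0.32 and 2.57 ± 0.33), at low levels of at most 2.89 CPM. Lower were the lactate exporters Slc16a3 (-0.59 ± 0.10 and -0.42 ± 0.10) and Slc16a1 (-0.35 ± 0.08 and -0.37 ± 0.08). Pdha1, a subunit of pyruvate dehydrogenase, was lower too (-0.23 ± 0.07 and -0.19 ± 0.07, edgeR adjusted p = 0.0195 and 0.0490). The heterozygous values of Slc16a1 and Pdha1 changed sign with total counts alone, as did those of Tpi1 and Crebbp. Pdk2 and Pdk3, other kinases of the same complex, had stage differences of -0.02 and 0.14 in heterozygous libraries, not called. In homozygous libraries Pdk2 was at 0.44 (not called) and Pdk3 was called higher (0.20 ± 0.07).

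**Figure D5:**
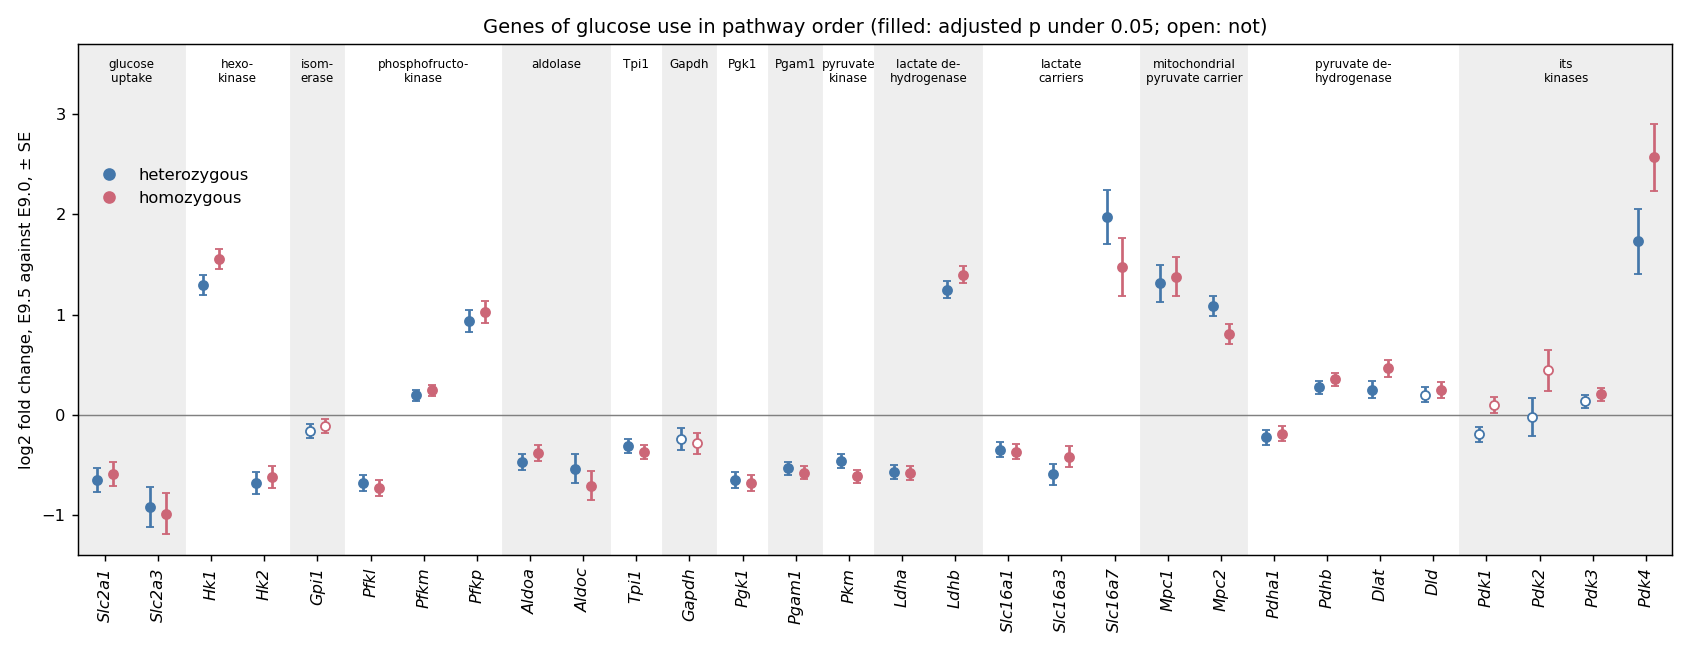
Log2 fold change with its SE for E9.5 against E9.0 (vertical axis) for genes of glucose use, in the order of the pathway along the horizontal axis, heterozygous in blue and homozygous in red, filled where the adjusted p was under 0.05. The carriers, Hk2, Pfkl, Pgk1, Pgam1, Pkm and Ldha lie below 0 and Hk1, Pfkp, Ldhb, Mpc1 and Mpc2 above it in both genotypes.

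Of 24 other HIF targets, 3 were called higher and 5 lower in heterozygous libraries and 5 and 5 in homozygous ones. As shares (12.5% and 20.8%, then 20.8% and 20.8%) these were near those of all genes (19.2% and 16.0%, then 19.6% and 15.8%). With total counts alone they were 7 and 2, and 6 and 2. Car12, a carbonic anhydrase (-1.16 ± 0.20 and -1.84 ± 0.21), and Stc2, a glycoprotein hormone (-0.97 ± 0.19 and -1.04 ± 0.19), were lower in both genotypes. Bhlhe40, a transcriptional repressor (0.87 ± 0.22 and 1.11 ± 0.21), and Angptl4, an inhibitor of lipoprotein lipase (0.63 ± 0.13 and 0.57 ± 0.13), were higher in both genotypes. Adm, adrenomedullin, was called higher in homozygous libraries (1.33 ± 0.33) and stood at 0.81 ± 0.32 in heterozygous ones, with an interaction term of 0.52 ± 0.47 that was not called. Between genotypes 0 of 24 were called at either stage (0.587% and 1.89% of all genes). Averaged over the stages 1 was called, beside 2.96% of all genes: Ddit4, an inhibitor of mTORC1 signalling, was higher in homozygous libraries (0.64 ± 0.11, edgeR adjusted p = 0.0106), at 0.75 ± 0.17 at E9.0 and 0.54 ± 0.16 at E9.5. Of 15 genes that encode HIF subunits or regulate HIF, 3 were called higher and 1 lower in heterozygous libraries and 5 and 0 in homozygous ones, beside the same shares of all genes. With total counts alone 10 were called higher in heterozygous and 4 in homozygous libraries, and 0 lower. The largest differences were those of Epas1 and Hif3a, which encode the alpha subunits of HIF-2 and HIF-3. Epas1 was at 0.31 ± 0.17 in heterozygous (not called) and 0.96 ± 0.18 in homozygous libraries (edgeR adjusted p = 5.0e-04), with an interaction term of 0.65 ± 0.25 that was not called. Hif3a was called higher in both genotypes (0.45 ± 0.15 and 0.84 ± 0.15). Vhl, the degrading ligase, was higher in both (0.29 ± 0.08 and 0.30 ± 0.08), while Hif1a was at 0.08 ± 0.07 in heterozygous (not called) and 0.29 ± 0.07 in homozygous libraries (edgeR adjusted p = 0.00238). In heterozygous libraries Rbx1, a subunit of the Vhl ligase, was called higher (0.23 ± 0.07) and the co-activator Crebbp lower (-0.26 ± 0.09). Egln1 (0.05 ± 0.07 and 0.16 ± 0.07) and Egln2 (0.06 ± 0.06 and -0.03 ± 0.06) were not called.

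Relatives of the glucose carriers and hexokinases, 10 of 12 of which passed the filter, gave 4 called higher and 2 lower in heterozygous libraries (19.2% and 16.0% of all genes) and 2 and 3 in homozygous ones (19.6% and 15.8%). With total counts alone they were 5 and 1, and 4 and 1. The insulin-responsive carrier Slc2a4 (0.71 ± 0.17 and 0.75 ± 0.18) and Slc2a12 (1.09 ± 0.18 and 1.14 ± 0.19) were higher in both genotypes, and the hexokinase relative Hkdc1 lower (-1.12 ± 0.28 and -1.66 ± 0.29), at low counts. Hk3 was called higher in heterozygous libraries, from a mean of 0.12 to 1.09 CPM.

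The genes around Vegfa did differ between genotypes. Of 9 other VEGF family ligands and receptors, 6 were called higher in homozygous libraries at E9.5, beside 1.19% of all genes, and 3 of 9 with total counts alone. They were the receptors Flt1 (0.62 ± 0.10), Kdr (0.64 ± 0.11) and Flt4 (0.75 ± 0.15), the co-receptor Nrp2 (0.70 ± 0.09) and the ligands Vegfc (0.48 ± 0.11) and Pgf (0.74 ± 0.18). The list was chosen with earlier results of these data known, so its share beside that of all genes is a description and no test. Kdr was at 65.4, 49.3 and 71.9 CPM in heterozygous and 105, 90.3 and 94.8 in homozygous E9.5 libraries, which did not overlap. Endothelial markers as a whole were also higher at that stage: the 12 summed to 193 to 276 CPM in heterozygous and 349 to 394 in homozygous libraries, with all 12 at 1 CPM or more in each, 2 of which are the receptors Kdr and Flt1. The part of vessel cells in the receptor values was not tested. Vegfa itself (0.18 ± 0.10, edgeR adjusted p = 0.437) was not called. At E9.0, 0 of 9 were called between genotypes (0.587% of all genes). From E9.0 to E9.5, 5 of 9 were called lower in heterozygous libraries (2 with total counts alone), beside 16.0% of all genes, namely Flt4 (-1.07 ± 0.16), Nrp2 (-1.01 ± 0.09), Vegfc (-0.59 ± 0.11), Flt1 (-0.58 ± 0.11) and Kdr (-0.43 ± 0.11). In homozygous libraries Nrp2 was called lower (-0.48 ± 0.09) and Nrp1 higher (0.38 ± 0.13), beside 15.8% and 19.6% of all genes. Of the 9 interaction terms 0 were called (0.0675% of all genes). The endothelial markers summed to 303 to 325 CPM in heterozygous and 359 to 368 in homozygous libraries at E9.0.

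Markers of other cell types also differed between the stages. Summed over 13 erythroid markers, the heterozygous libraries were at 687 to 1214 CPM at E9.0 and 4092 to 5331 at E9.5, with 11 detected and Hba-a1 and Hba-a2 at 0 in 11 of 12 libraries. The homozygous libraries were at 574 to 1245 and 2862 to 5252. The 12 heart muscle markers summed to 75.9 to 263 and 2400 to 3118 CPM in heterozygous and 132 to 382 and 2768 to 3711 in homozygous libraries, with Nppa at 0 in 2 libraries. The 11 yolk sac endoderm markers summed to 41.6 CPM in heterozygous E9.5 replicate 1, with 7 at 1 CPM or more. In every other library they summed to 7.28 to 14.2 CPM, with 2 to 4 at that level. The source of that difference was not tested. Of 10 neural crest markers 5 were called lower in each genotype (median log2 change -0.43 in both), beside 16.0% and 15.8% of all genes. With total counts alone 4 were called lower in each, and 2 higher in heterozygous libraries. These markers had sums of 798 to 890 CPM at E9.0 and 624 to 678 at E9.5 in heterozygous and of 774 to 843 and 456 to 578 in homozygous libraries. Between genotypes at E9.5, 5 crest markers were called lower in homozygous libraries and 0 higher (median log2 -0.41), beside 1.89% of all genes in either direction. They were Sox10, Foxd3, Tfap2b, Pax3 and Crabp1, and with total counts alone 4 were called. At E9.0 Tfap2b was called lower, beside 0.587% of all genes, and 0 of 10 with total counts alone. Of 12 cranial ganglion markers tested, 8 were called higher and 1 lower in heterozygous libraries (19.2% and 16.0% of all genes) and 7 and 0 in homozygous ones (19.6% and 15.8%), and 11 and 8 were higher and 0 lower with total counts alone. Their sums were 134 to 142 CPM at E9.0 and 218 to 244 at E9.5 in heterozygous libraries, and 144 to 151 and 202 to 209 in homozygous ones. Of 10 neural progenitor markers, 4 were called higher (Nes, Hes5, Fabp7 and Vim) and 2 lower (Pax6 and Six3) in heterozygous libraries. In homozygous libraries 3 were called higher (Nes, Fabp7 and Vim) and 3 lower (Pax6, Otx2 and Six3). Scaling by total counts alone gave 4 higher and 1 lower in each genotype, and the shares of all genes are those given above. Their median log2 changes were -0.12 and -0.02, although their sums were 899 to 988 CPM over the E9.0 libraries and 1197 to 1352 over the E9.5 libraries. The part of these cell types in the fall of the members was not tested. Leaving the erythroid, Rn45s, Xist and Y-linked genes out of the counts gave 6 and 5 called members, as in the counts above. Dropping these rows does not take the RNA of such cells out of the members' values, so it does not test that part.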

How the data were processed

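RNA from the head material of 12 libraries (4 groups of 3) was sequenced on an Illumina platform. The submitters' processing notes name cutadapt, STAR, featureCounts, MultiQC and the mm10 genome; tool versions, the gene annotation and how strand was treated are not given in the sources used here. The authors deposited raw counts per gene symbol, and these counts were analysed as deposited, without further correction. The members and gene lists were chosen with earlier results of these data known, so their shares beside those of all genes are descriptions and no test.

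From the counts, R 4.3.3 with edgeR 4.0.16 kept 14810 genes (filterByExpr), scaled libraries by TMM factors, and fitted a mean per group over all 12 libraries with robust quasi-likelihood dispersions. Tests were two-sided, with Benjamini-Hochberg adjustment over all 14810 genes and a threshold of 0.05; the SE of a log2 fold change was taken from its F statistic. CPM values use the TMM-scaled library sizes. DESeq2 1.42.0 and limma-voom (limma 3.58.1), other scalings, filters, row sets, thresholds, a replicate block and leaving out each library were the alternatives. Total counts without Rn45s was an alternative chosen after seeing the data. The fit was tested on simulated data with known changes in a small share of genes, the same dispersion for all genes and no difference in Rn45s share. That check does not show how the fit behaves when many genes change, as between these stages.

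Exon lengths and overlaps came from GENCODE M21, promoters from RefSeq (GRCm38.p6). All 10 members are described. Of the other lists (glycolysis, HIF targets, HIF regulation, pyruvate and lactate, carrier and hexokinase relatives, VEGF), called genes with the 4 largest changes and named partners of the members are given by name, with a selection of other called genes named after their values were seen. A gene that this rule names is not reported here. Exact permutation tests of 3 against 3 cannot give a p below 0.1. The common coefficient of biological variation was 8.77%.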

Additional observations from a re-analysis of the deposited data

How the results depend on the processing

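Over 1300 member results in the alternatives, 1285 kept their side of the threshold, 10 lost a call, 5 gained one and 0 reversed. Most of the 1300 were genotype or interaction results, which had no call to lose. All the lost and gained calls were among the stage changes. Slc2a1, Slc2a3, Hk2, Pgk1 and Ldha kept their calls in both genotypes in all leave-one-out fits; the number of called members then ranged from 5 to 6 in each genotype. With total counts only, the heterozygous stage count was 1 instead of 6, and the median of all genes was 0.38 (0.18 in homozygous libraries, where 5 stayed called); the cause of the lost calls was not tested. It moved the share of calls that were higher from 55.3% to 87.1% for the homozygous stage change, from 73.6% to 96.2% for genotype at E9.0 and from 62.9% to 47.2% at E9.5. With Rn45s left out of the totals, chosen after seeing the data, the shares were 74.8%, 69.2% and 86.8% for the stage changes in heterozygous and homozygous libraries and genotype at E9.0, and 5 members were called in each genotype. Ratios to a relative whose genotypes did not overlap at E9.5 numbered 1, and 1 to 2 when a library was left out. The replicate numbers share no stated source, and same-numbered libraries deviated with correlations of -0.39 to 0.24. Differently numbered libraries were not compared, so these values cannot decide whether the numbers pair samples. With the replicate block in edgeR 7 members were called in heterozygous libraries (Pdk1 added, adjusted p = 0.0453) and 5 in homozygous ones. Ankrd37 and Egln3 had the fewest counts of the members.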
